A study of Homo sapiens with 8 samples.

Results

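The 10 genes described here encode regulators of mitochondrial apoptosis from the BCL2 family, and they were picked by symbol: the anti-apoptotic members BCL2, BCL2L1 and MCL1, the effectors BAX and BAK1, and the BH3-only members BID, BAD, BBC3, PMAIP1 and BCL2L11. They are 10 of the 60332 genes in the expression table, and all 10 were among the 15372 genes that passed the filter on low values. Poly-A RNA was sequenced from SK-N-MC, an established line of Ewing sarcoma cells, in 8 libraries that form 4 groups of 2. Cells of all 4 groups had received dCas9-KRAB by lentivirus, an inactive Cas9 joined to the KRAB repressor domain, and were puromycin-selected pools rather than single clones. Control cells held the empty vector, though the paper calls the control SK-N-MC cells of this experiment parental. One group of control cells stayed in normoxia while the other spent 16 h at 1% oxygen. The eKD1 and eKD2 cells held 1 of a pair of independent guides that place the repressor at the GGAA repeat enhancer of LOXHD1, and the eKD libraries analysed here came from that same hypoxia. An eKD group in normoxia was not analysed here.

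Proteins of the BCL2 family decide at the outer mitochondrial membrane whether a cell commits to apoptosis. BAX and BAK1 form the pores that release cytochrome c, BCL2, BCL-XL (the main product of BCL2L1) and MCL1 hold them in check, and the BH3-only proteins neutralise those guardians or activate the effectors directly. Of the BH3-only members, PMAIP1 (NOXA) binds mainly MCL1, BAD binds BCL2 and BCL-XL, and BBC3 (PUMA), BCL2L11 (BIM) and cleaved BID bind all of the guardians. PMAIP1 and BBC3 are known for transcriptional induction by stress signalling, including that through ATF4, whereas BID is activated mainly by proteolysis and BAD mainly by loss of phosphorylation. Messenger RNA does not report those protein-level steps.

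The upstream sequences of PMAIP1 and BBC3 are shown because these BH3-only genes had the widest ranges of group means on the log2 scale, with that of BAX as a member whose level moved little. RefSeq promoter windows on GRCh38.p14 were matched for 9 of the 10 members. The 250 bases before the annotated start are printed 5′ to 3′ on the strand of the gene, for PMAIP1 at chr18:59899746-59899995 (plus strand), for BBC3 at chr19:47232668-47232917 (minus strand) and for BAX at chr19:48954625-48954874 (plus strand). Capitals mark matches, on either strand, of ACGTG (the core of hypoxia response elements) and TGACG (part of the cyclic AMP response element), which overlap in the first capital run of BAX.
PMAIP1: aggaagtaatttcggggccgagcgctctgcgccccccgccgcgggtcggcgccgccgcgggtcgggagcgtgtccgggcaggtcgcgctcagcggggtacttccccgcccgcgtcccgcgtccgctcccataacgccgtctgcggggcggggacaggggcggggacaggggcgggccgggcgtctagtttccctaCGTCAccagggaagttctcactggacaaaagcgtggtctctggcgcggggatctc
BBC3: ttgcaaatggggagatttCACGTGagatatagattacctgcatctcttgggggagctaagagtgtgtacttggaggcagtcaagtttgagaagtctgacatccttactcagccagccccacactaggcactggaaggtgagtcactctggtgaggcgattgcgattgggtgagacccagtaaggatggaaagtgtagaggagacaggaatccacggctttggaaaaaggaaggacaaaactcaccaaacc
BAX: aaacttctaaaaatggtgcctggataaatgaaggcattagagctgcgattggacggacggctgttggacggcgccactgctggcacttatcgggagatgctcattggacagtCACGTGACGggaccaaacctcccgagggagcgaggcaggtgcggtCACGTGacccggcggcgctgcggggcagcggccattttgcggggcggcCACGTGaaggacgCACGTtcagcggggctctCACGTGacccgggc

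Over windows of 300 bases (250 before and 50 after the start), ACGTG occurred in 21.4% of the 35116 RefSeq promoters and in 3 of the 9 matched members, BBC3, BAX and BID. TGACG occurred in 24.6% of the promoters and in 5 members, PMAIP1, BCL2, BCL2L1, BAX and BAD. The composite element of C/EBP and ATF factors, searched as TGATGNAA on both strands, occurred in 3.62% of the promoters and in 0 of the 9 members. BBC3 and BAX both held CACGTG, and their levels behaved differently in hypoxia, as given below. The percentages count windows, whereas a member counts once if any of its windows matched. BID has 5 windows and BAD and BCL2L1 have 2 each, so the member counts and the percentages differ in unit. Such matches are descriptions of letters in these windows. The motifs were chosen with the expression values known.

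The deposited values were FPKM, fragments scaled by transcript length and by library size, so levels of different genes can be set side by side. How the libraries were scaled to each other is not given in the sources used here. Column totals ran from 865107 to 1041457 FPKM, and 19310 to 20770 genes per library were above 0. The table holds no read counts, so the absolute depth is unknown. The relative depth, read from the steps between low values, was lowest in replicate 2 of control normoxia (55.7% of replicate 1 of control hypoxia) and in replicate 2 of eKD1 (61.1%). LOXHD1, the gene whose enhancer was targeted, had 91.1 to 93.0 FPKM in the control hypoxia libraries, 15.0 to 17.3 FPKM in those of eKD1 and 11.7 to 11.8 FPKM in those of eKD2. The hypoxia-induced carbonic anhydrase CA9 had 56.9 to 82.8 FPKM in the 6 hypoxia libraries and was 0 in normoxia. All 8 Ewing sarcoma markers examined were expressed in every library, and the markers of other cell types given here ranged from 0 (MYOG, listed at 0 throughout) to 23.8 FPKM (PTPRC, which was lowest in control hypoxia at 4.87 and 5.39 FPKM and whose part in the results was not tested). In bulk RNA, fewer cells expressing a gene and less RNA per cell cannot be told apart. Changes are differences of log2(FPKM + 1) fitted with limma over all tested genes, with SE, and a change was called at a Benjamini-Hochberg adjusted p below 0.05. The spread is that between duplicates, and the control hypoxia libraries enter both the hypoxia comparison and each comparison of an eKD group with control hypoxia, so these changes are given side by side only.

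The members spanned a wide range of levels. BAX was the most abundant at 193 to 237 FPKM over the 8 libraries, and its group means lay at the 95.3 to 96.0 percentile of the tested genes. BID (90.1 to 129 FPKM), BAD (56.7 to 79.0 FPKM), MCL1 (26.5 to 46.9 FPKM), PMAIP1 (26.1 to 68.2 FPKM) and BCL2L1 (15.6 to 26.1 FPKM) followed. BAK1 (7.11 to 9.37 FPKM), BCL2 (2.99 to 7.62 FPKM), BCL2L11 (2.40 to 9.90 FPKM) and BBC3 (0.657 to 5.04 FPKM) were lower. The pore former BAX made up 95.7% to 97.1% of the summed FPKM of the 2 effectors in every library, with BAK1 as the rest. The ratio of the highest to the lowest library was 1.22 for BAX and 1.32 for BAK1, against 7.68 for BBC3, 4.12 for BCL2L11, 2.61 for PMAIP1 and 2.55 for BCL2.

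**Figure D1:**
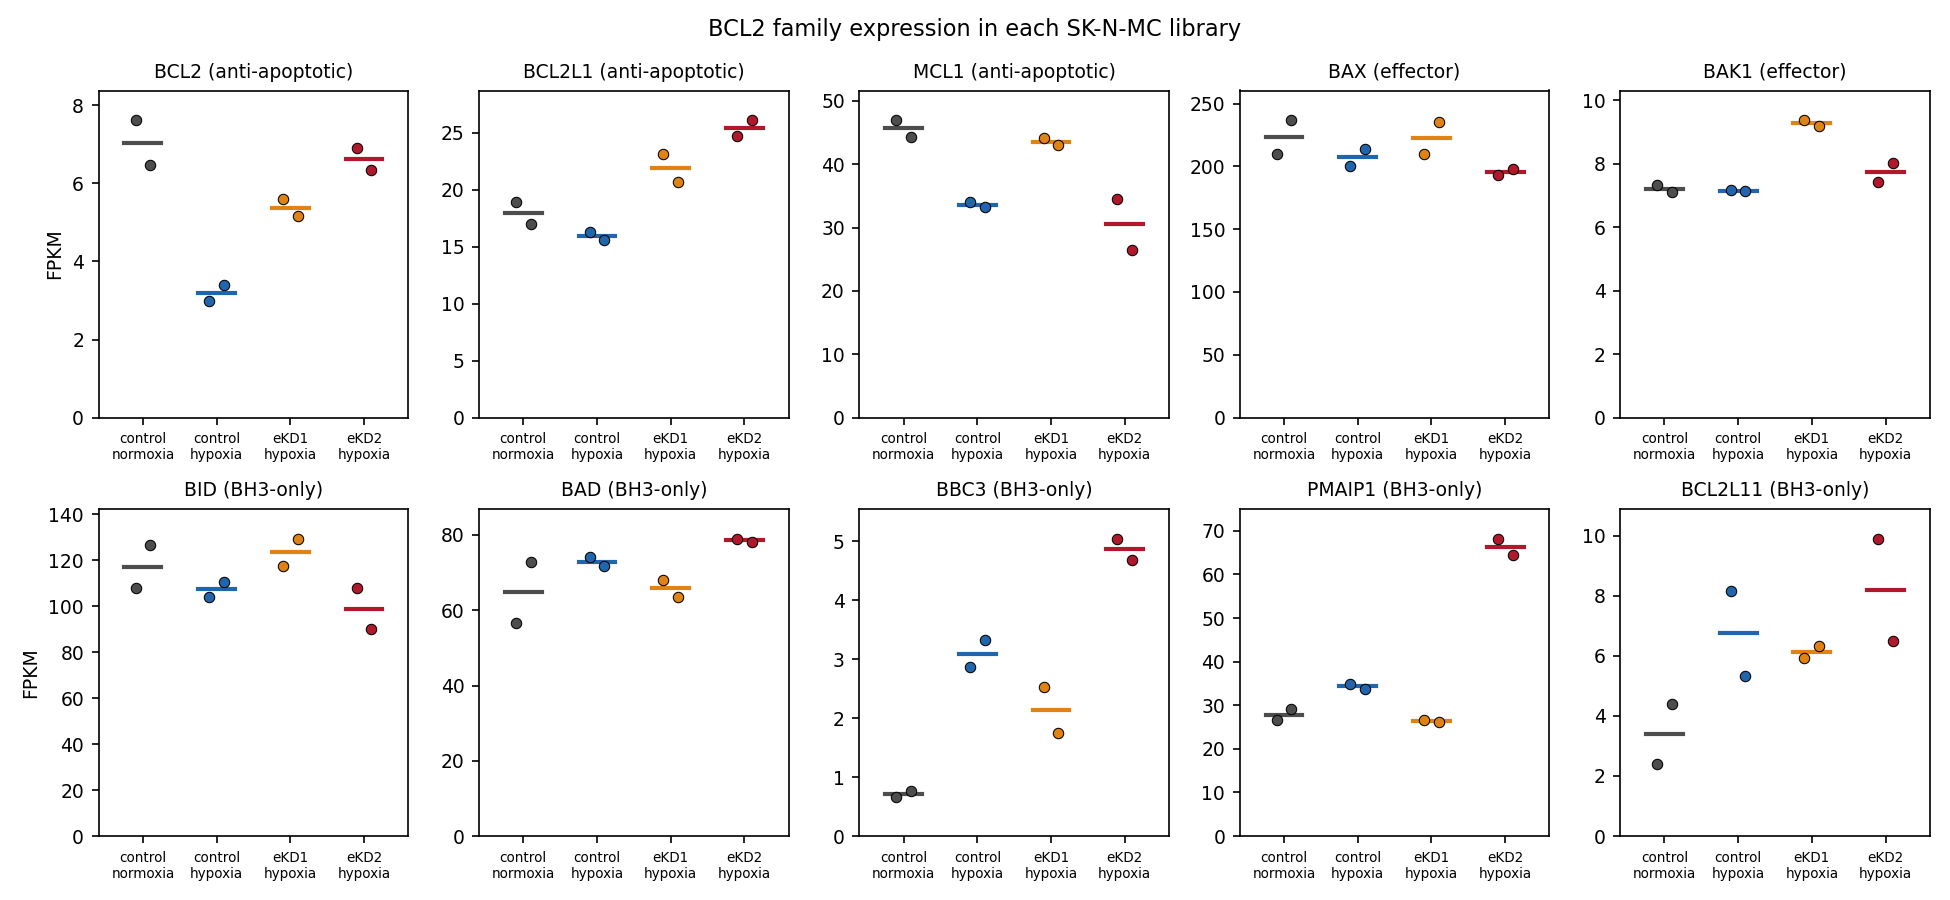
FPKM of each BCL2 family member (vertical axes, starting at 0) in the 2 libraries of each group (points), with the group mean as a bar. PMAIP1 stood at 68.2 and 64.6 FPKM in eKD2, above all other libraries, while BCL2 was lowest in control hypoxia and BAX ranged only from 193 to 237 FPKM.

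Among the anti-apoptotic members, hypoxia in control cells lowered BCL2 and MCL1. BCL2, located at chr18:60790579-60987361 on the minus strand of GRCh37, was at 7.62 and 6.46 FPKM in control normoxia and fell to 2.99 and 3.40 FPKM under hypoxia. Both hypoxia libraries were below both normoxia libraries, a ratio of means of 0.454 (log2 change -0.94, SE 0.16, adjusted p = 0.0242), a call that was lost without the filter on low values (adjusted p = 0.0709). MCL1, whose protein is short-lived and depends on steady transcription, was at 46.9 and 44.3 FPKM in normoxia and at 34.0 and 33.2 FPKM in hypoxia, again without overlap (log2 change -0.43, SE 0.072, adjusted p = 0.0239). BCL2L1 was at 18.9 and 17.0 FPKM in normoxia and 16.3 and 15.6 FPKM in hypoxia, a change that was not called (-0.16, SE 0.10, adjusted p = 0.302).

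Of the BH3-only members, BBC3 alone passed the test in this comparison, and it rose. BBC3 was at 0.657 and 0.772 FPKM in control normoxia and rose to 2.86 and 3.32 FPKM under hypoxia, a ratio of 4.32 (log2 change 1.25, SE 0.17, adjusted p = 0.0156). BBC3 reached the filter of 1 FPKM only through its 6 hypoxia libraries, so its call against normoxia is not independent of that filter. The log2(FPKM + 1) scale also understates changes of genes this low. PMAIP1 was at 26.7 and 29.0 FPKM in normoxia and 34.9 and 33.7 FPKM in hypoxia, without overlap, and missed the threshold (0.29, SE 0.084, adjusted p = 0.0703), which it passed in a shared fit of all 8 libraries (adjusted p = 0.0280). BCL2L11 was at 2.40 and 4.40 FPKM in normoxia and 8.16 and 5.34 FPKM in hypoxia. Its duplicates differed so much that a change of 0.83 (SE 0.33) was not called (adjusted p = 0.139). BID and BAD overlapped between the groups.

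Neither effector passed the test. BAX was at 210 and 237 FPKM in normoxia and 200 and 214 FPKM in hypoxia (log2 change -0.11, 95% confidence interval -0.34 to 0.13), and BAK1 was at 7.32 and 7.11 FPKM against 7.16 and 7.15 FPKM (-0.01, interval -0.34 to 0.32). The upstream sequence of BAX shown above holds CACGTG several times and that of BBC3 holds it once, starting at position -232, from which nothing can be read about factor binding.

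In all, 3 of the 10 members were called in hypoxia against normoxia in control cells, 1 higher and 2 lower. The higher member was BBC3, which passed the filter only through its hypoxia libraries. Over all tested genes 32.2% were called, 16.2% higher and 16.0% lower, so the members' share is close to that background. The median change of the members was -0.06 and that of all genes was 0.01. Setting all libraries to equal FPKM totals moved the median of all genes to -0.19 in this comparison and turned the split of 2486 higher and 2460 lower genes into 1566 and 3944. There BCL2 (-1.14), MCL1 (-0.67) and BBC3 (1.117) were still called, BAX was called lower (-0.35, adjusted p = 0.0439), and PMAIP1 was at 0.06.

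Enhancer repression with the first guide left no member called. The comparison of eKD1 with control hypoxia asks what repression of the LOXHD1 enhancer changes in low oxygen. Over all genes, 0.0651% were called (0.0130% higher, 0.0520% lower), which is 10 genes, so a count of 0 of 10 members says little. At an unadjusted p below 0.05 there were 5 members, against 21.7% of all genes. BCL2 stood at 5.60 and 5.17 FPKM in eKD1, above both control hypoxia libraries and below both normoxia libraries (0.61, SE 0.15, adjusted p = 0.158). BCL2L1 was at 23.1 and 20.7 FPKM (0.43, SE 0.10, adjusted p = 0.152), MCL1 was at 44.1 and 43.0 FPKM (0.36, SE 0.066, adjusted p = 0.122) and BAK1 was at 9.37 and 9.19 FPKM (0.33, SE 0.11, adjusted p = 0.222), in each case above both libraries of control hypoxia. PMAIP1 was below them at 26.7 and 26.1 FPKM (-0.37, SE 0.073, adjusted p = 0.131). BBC3 at 2.53 and 1.75 FPKM was also below both (-0.39, interval -0.96 to 0.18). The interval of the BAX change ran from -0.13 to 0.33.

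PMAIP1, BCL2L1 and BCL2 were higher in eKD2, the cells with the second guide, than in control hypoxia. Each guide was studied in its own cell pool, so enhancer repression cannot be told apart from other differences between guides or pools. PMAIP1, at chr18:57567228-57571537 on the plus strand of GRCh37 and thus on the same chromosome as BCL2 and LOXHD1, reached 68.2 and 64.6 FPKM in eKD2 against 34.9 and 33.7 FPKM in control hypoxia. Its ratio of means was 1.93 (log2 change 0.93, SE 0.067, adjusted p = 0.0273), and its group mean moved from the 72.9 to the 84.2 percentile of tested genes. BCL2L1, at chr20:30252255-30311792, was at 24.7 and 26.1 FPKM, 1.59 times control hypoxia (0.64, SE 0.084, adjusted p = 0.0367). BCL2 was at 6.90 and 6.35 FPKM, 2.07 times control hypoxia (0.86, SE 0.14, adjusted p = 0.0468). BCL2 in eKD2 overlapped the normoxia libraries (7.62 and 6.46 FPKM), from which it differed by -0.07 (interval -0.50 to 0.35).

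The other members did not pass this test. BBC3 was at 5.04 and 4.69 FPKM in eKD2, above both control hypoxia libraries (0.52, SE 0.14, adjusted p = 0.101). MCL1 was at 34.5 and 26.5 FPKM, on either side of the control values, and its change of -0.15 had an interval from -0.57 to 0.28. BAX at 193 and 198 FPKM differed by -0.08 (interval -0.23 to 0.07), and BAK1 at 7.44 and 8.03 FPKM by 0.10 (interval -0.23 to 0.43). BCL2L11 was at 9.90 and 6.51 FPKM and BID at 108 and 90.1 FPKM, both overlapping the controls, and BAD was at 79.0 and 78.1 FPKM (0.11, interval -0.04 to 0.26). Thus 3 of 10 members were called, all higher, against 9.61% of all genes (5.80% higher and 3.81% lower). The split of all genes depended on scaling, with 891 higher and 586 lower as deposited, 757 and 838 after median-of-ratios rescaling, and 1478 and 430 at equal FPKM totals. Under both rescalings the same 3 members were called higher.

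The call of BCL2 in eKD2 was the least secure of the 3, being lost with a pseudocount of 0.1 (adjusted p = 0.0506) and without a filter (0.0999). With a variance estimate that ignores the trend with expression, 28 genes of the whole table were called and none of these members was among them, with adjusted p of 0.0553 for PMAIP1, 0.0602 for BCL2L1 and 0.0567 for BCL2. Leaving out any 1 of the libraries left 0 genes called in the whole table in every comparison, so no call of a member can be checked that way. The change itself then lay between 0.89 and 0.97 for PMAIP1, 0.60 and 0.68 for BCL2L1, and 0.79 and 0.93 for BCL2.

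**Figure D2:**
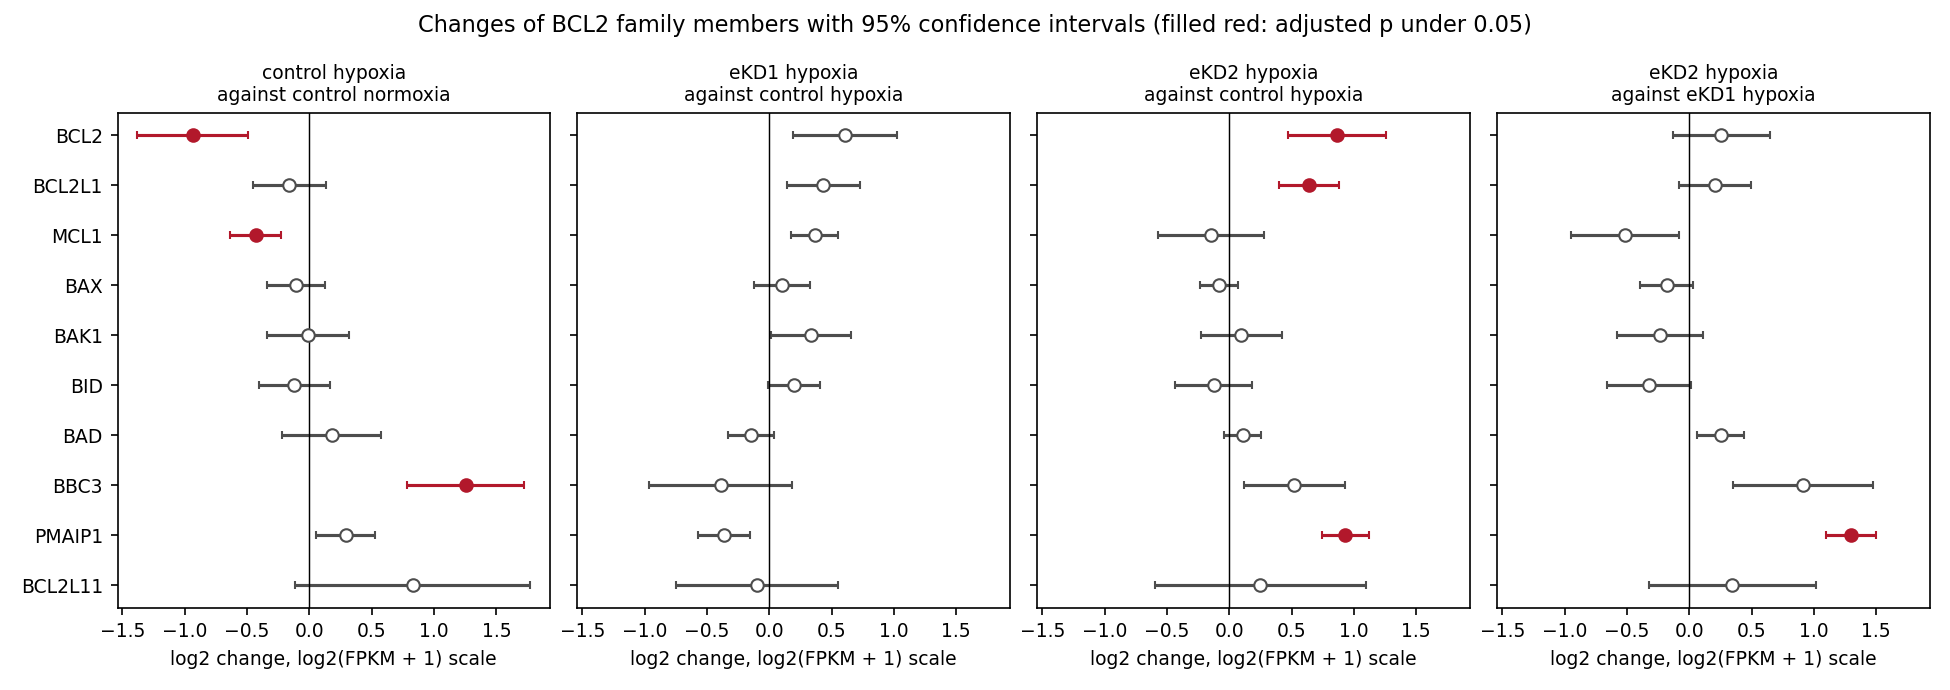
Difference of log2(FPKM + 1) for each member (horizontal axes) with its 95% confidence interval in 4 comparisons. Filled red points passed an adjusted p below 0.05 (3, 0, 3 and 1 members from left to right); PMAIP1 was at 0.93 against control hypoxia and at 1.30 against eKD1 in eKD2.

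Among the 10 members the guides differed most in PMAIP1. Set directly against eKD1, eKD2 had 2.51 times as much PMAIP1 (log2 change 1.30, SE 0.070, adjusted p = 0.0394), the only member called among 10, when 0.403% of all genes were called (0.286% higher, 0.117% lower). The call was lost without a variance trend (adjusted p = 0.0846), where 5 genes of the whole table were called, and with a replicate block, where 0 were. BBC3 was 2.28 times higher in eKD2 without overlap, and did not pass (0.91, SE 0.19, adjusted p = 0.119). With a shared fit of all 8 libraries BBC3 was called too (adjusted p = 0.0361). MCL1 was lower in both eKD2 libraries than in both eKD1 libraries (-0.51, interval -0.95 to -0.08, adjusted p = 0.172). BCL2 differed between the guides by 0.26 (interval -0.13 to 0.65) and BCL2L1 by 0.21 (interval -0.08 to 0.50), so a difference between guides in these anti-apoptotic genes was not shown and is not excluded by the intervals.

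Against control normoxia, eKD2 in hypoxia had higher BBC3 and PMAIP1. BBC3 was 6.81 times higher (1.77, SE 0.16, adjusted p = 0.0171) and PMAIP1 2.38 times higher (1.22, SE 0.083, adjusted p = 0.0127). Both normoxia libraries of BBC3 were below the filter of 1 FPKM, so its results against normoxia are not independent of that filter. BCL2L1 (0.48, SE 0.10, adjusted p = 0.0537) and MCL1 (-0.58, SE 0.15, adjusted p = 0.0781) missed the threshold on either side of 0. These 2 called members compare with 19.3% of all genes called (11.5% higher, 7.83% lower), where 1769 genes were higher and 1204 lower as deposited but 1460 and 1529 after median-of-ratios rescaling and 1258 and 1782 at equal totals. In eKD1 against control normoxia 0 of 10 members were called and 1, BBC3, had an unadjusted p below 0.05 (0.86, SE 0.20, adjusted p = 0.0806). There 10.8% of all genes were called (6.06% higher, 4.75% lower), and 33.3% had an unadjusted p below 0.05. The split was 932 and 730 as deposited and 684 and 1585 at equal totals.

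Ordered by level, PMAIP1 ran eKD1, control normoxia, control hypoxia, eKD2, with eKD1 and normoxia overlapping and only the step from control hypoxia to eKD2 called. In the orders that follow, no step between neighbours passed the test. BBC3 ran normoxia, eKD1, control hypoxia, eKD2, with no overlap between groups. BCL2 ran control hypoxia, eKD1, eKD2, normoxia, where eKD2 overlapped normoxia. BCL2L1 ran control hypoxia, normoxia, eKD1, eKD2, and MCL1 ran eKD2, control hypoxia, eKD1, normoxia, with eKD2 overlapping control hypoxia.

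The composition of the anti-apoptotic transcripts in eKD2 stood apart from that in the other libraries. MCL1 accounted for 63.9% and 65.4% of the summed FPKM of BCL2, BCL2L1 and MCL1 in control normoxia, 63.9% and 63.6% in control hypoxia, 60.5% and 62.5% in eKD1, and 52.1% and 45.0% in eKD2. BCL2L1 took 25.8% and 25.1% in normoxia and 37.4% and 44.3% in eKD2, above every other library. The sum itself was 73.5 and 67.8 FPKM in normoxia and 53.3 and 52.2 FPKM in control hypoxia. In eKD1 it came to 72.8 and 68.9 FPKM and for eKD2 to 66.1 and 59.0 FPKM, so it was lowest in control hypoxia. Control hypoxia kept nearly the same MCL1 share as normoxia at a lower sum, while eKD2 had a lower MCL1 share.

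Among the BH3-only transcripts, PMAIP1 took 25.3% and 26.5% of the sum in eKD2 against 11.5% to 15.6% in the other 6 libraries. BID took 39.9% and 36.9% in eKD2 and 46.5% to 57.0% elsewhere. BBC3 never exceeded 1.92% of the BH3-only sum. These shares are descriptions, with no test.

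**Figure D3:**
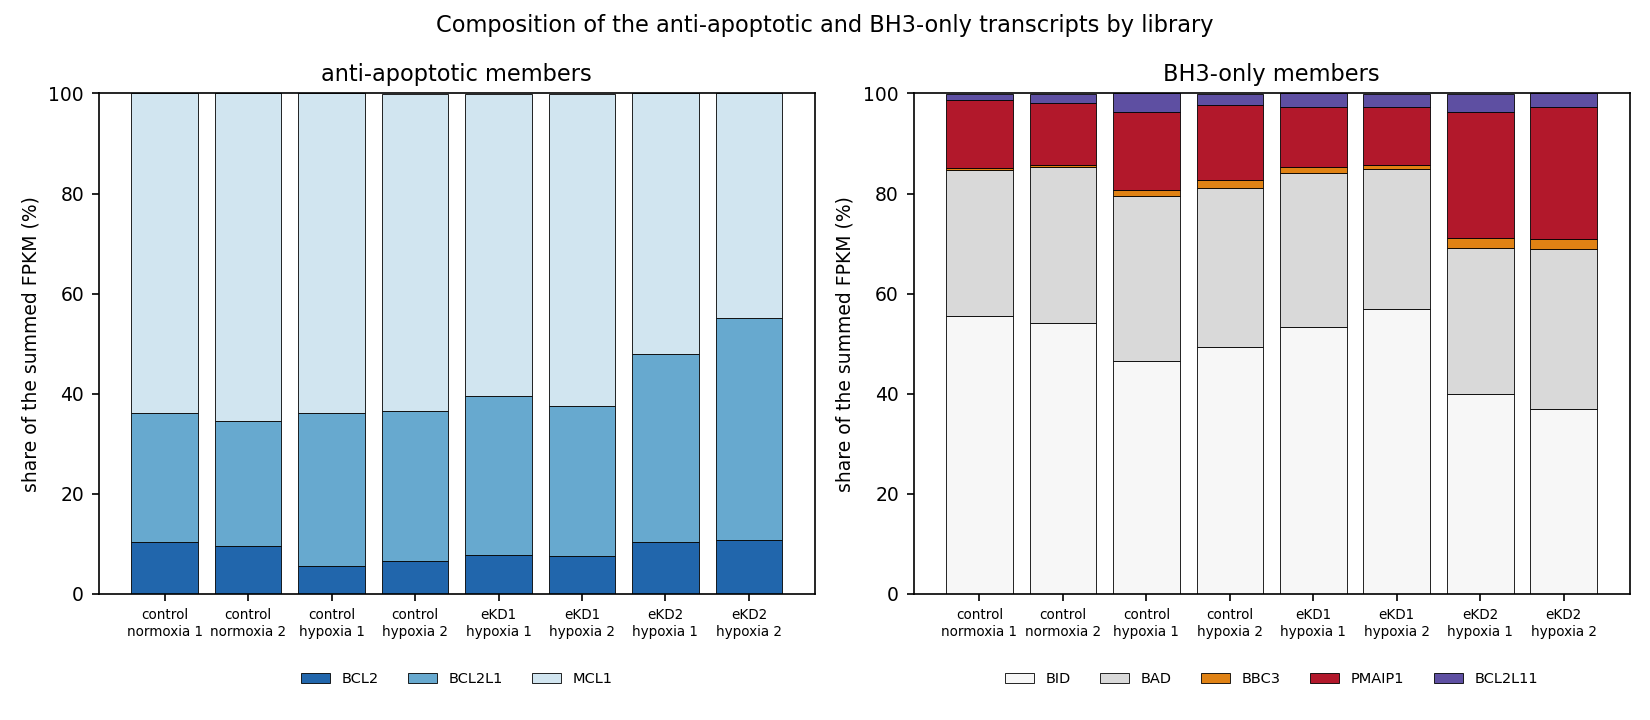
Share of the summed FPKM (vertical axes, percent) taken by each anti-apoptotic member (left) and each BH3-only member (right) in each of the 8 libraries. In the 2 eKD2 libraries MCL1 is at 52.1% and 45.0% and PMAIP1 reaches 25.3% and 26.5%.

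Some member values are less certain because of overlapping genes, since the library kit does not mark strand. On the GENCODE 44 annotation of GRCh37, 41.3% of the exonic bases of BCL2L1 are shared with ABALON on the opposite strand, which was listed at 0 in every library. BAD shares 23.7% of its exonic bases with GPR137 (at most 35.4 FPKM) and BCL2L11 shares 10.8% with MIR4435-2HG (at most 26.5 FPKM), both on the opposite strand. MCL1 shares 5.27% with ADAMTSL4-AS1 on the same strand (at most 0.470 FPKM). The locus listed with the values was wider than the annotated gene for BAK1 (53294 against 7747 bases), MCL1 (31178 against 18844) and BAD (19672 against 14875). What this adds to their values was not tested. PMAIP1 and BAX had no overlapping gene in that annotation, and none of the genes overlapping BCL2 shared exonic bases with it. The table gives 1 value per gene, so the long and short products of BCL2L1, which have opposite effects on apoptosis, and those of MCL1 were not separated.

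A list of 8 genes held transcription factors known to act on BH3-only genes and stress genes that are targets of such factors. All 8 were tested and 6 rose in control hypoxia (16.2% of all genes did), with a list median of 1.05 against 0.01 for all genes. This list, like those below, was chosen with earlier results of these data known, so its counts are descriptions. ATF4, the translationally controlled factor of the integrated stress response, rose from 260 and 273 to 331 and 333 FPKM (0.32, SE 0.046, adjusted p = 0.0187). DDIT3 (CHOP), a factor that can promote cell death under stress, rose from 40.9 and 39.3 to 141 and 136 FPKM (1.76, SE 0.060, adjusted p = 0.00505), and TRIB3, a target of both, rose by 1.51 (SE 0.14, adjusted p = 0.00976). ATF3, a stress-induced factor, rose by 2.40 and CHAC1, a glutathione-degrading enzyme and ATF4 target, by 2.13.

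In eKD2 against control hypoxia 4 of the 8 rose and 1 fell (5.80% and 3.81% of all genes did), with a list median of 0.59 against 0.05 for all genes. ATF3 was at 180 and 151 FPKM in eKD2 against 36.4 and 38.0 FPKM (2.12, SE 0.11, adjusted p = 0.0251), and CHAC1 was at 80.9 and 87.2 against 21.4 and 21.7 FPKM (1.91, SE 0.071, adjusted p = 0.0143). DDIT3 rose by 0.54 (adjusted p = 0.0287) and TRIB3 by 0.65 (adjusted p = 0.0331), whereas ATF4 at 381 and 405 FPKM did not pass (0.24, SE 0.048, adjusted p = 0.0612). The gene that fell was E2F1 (-0.55, adjusted p = 0.0305), which is named after its value was seen.

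In eKD1 none of the 8 was called against control hypoxia (0.0651% of all genes were) and 4 had an unadjusted p below 0.05 (21.7% of all genes). DDIT3 was at 55.8 and 49.1 FPKM (-1.38, SE 0.085, adjusted p = 0.101) and TRIB3 at 7.98 and 9.59 FPKM (-1.30, SE 0.13, adjusted p = 0.102), below both control hypoxia libraries, as PMAIP1 was. In the direct comparison of the guides 3 of 8 were called, all higher in eKD2 (0.286% of all genes): CHAC1 (3.001, SE 0.10, adjusted p = 0.0205), TRIB3 (1.95, SE 0.12, adjusted p = 0.0461) and DDIT3 (1.92, SE 0.085, adjusted p = 0.0273). Against normoxia 6 of 8 rose in eKD2 (11.5% of all genes) and 2 of 8, ATF3 and CHAC1, rose in eKD1 (6.06% of all genes).

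**Figure D4:**
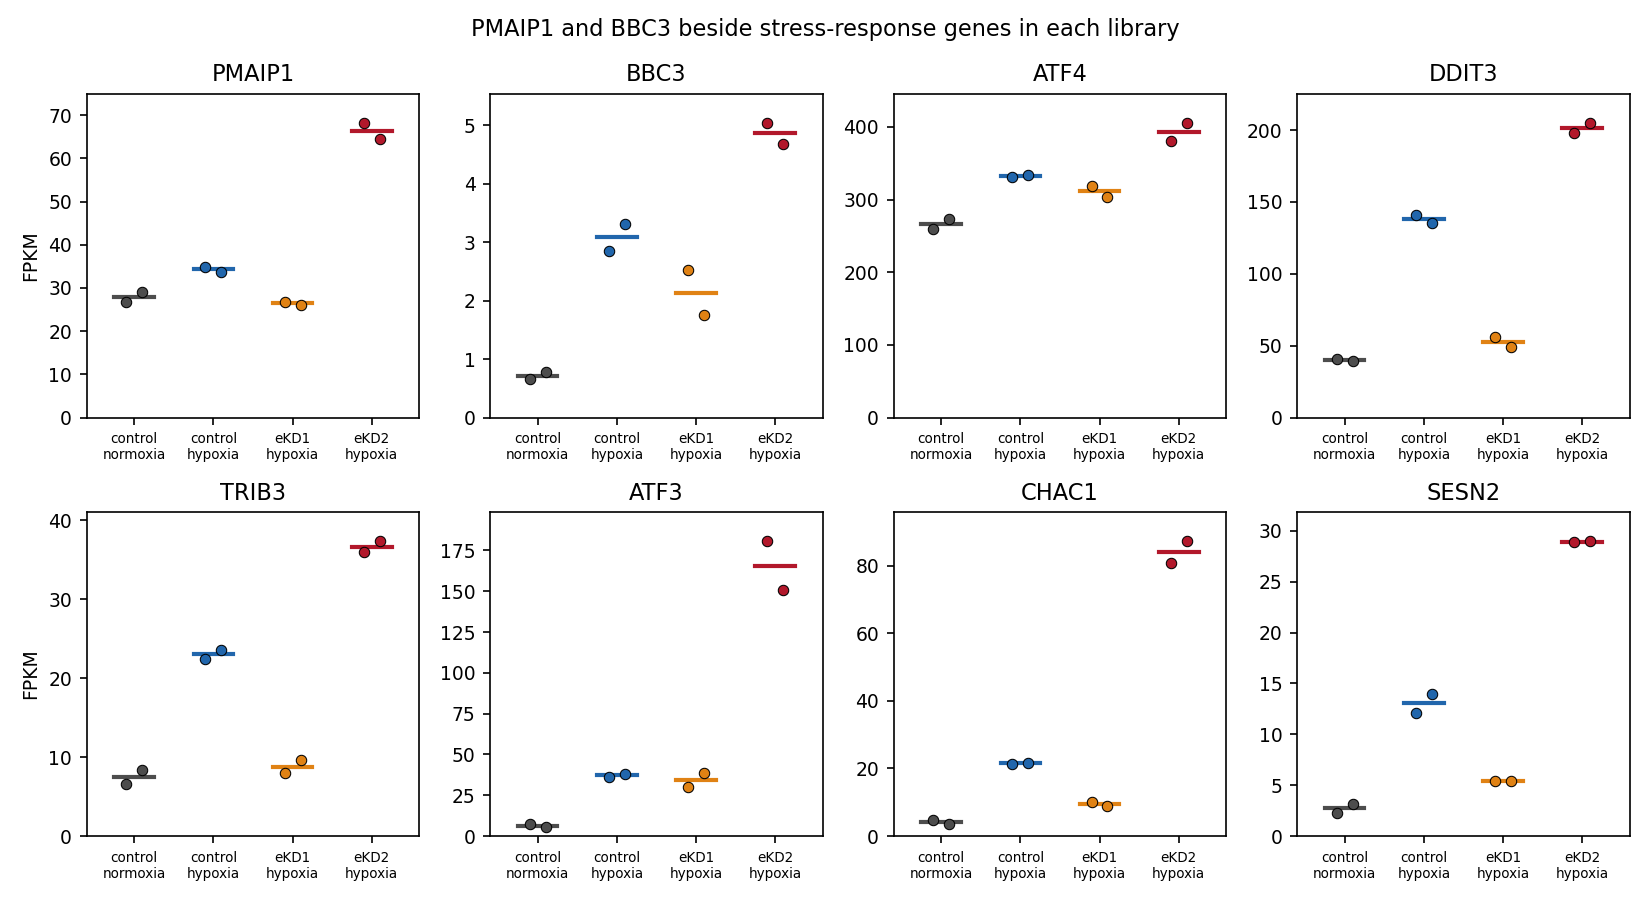
FPKM of PMAIP1, BBC3 and 6 stress-response genes (vertical axes, starting at 0) in the 2 libraries of each group (points), with group means as bars. All 8 genes shown are highest in both eKD2 libraries, and DDIT3, TRIB3, CHAC1 and SESN2 are lower in eKD1 than in control hypoxia. SESN2 is from another list, and E2F1, FOXO1 and FOXO3 of the list of transcription factors and stress genes are not shown. Of those left out, E2F1 was lower in eKD2 (52.1 and 52.7 FPKM) than in control hypoxia (75.7 and 78.4 FPKM), and FOXO1 and FOXO3 were higher.

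Growth arrest and stress genes that are not stress transcription factors were read beside the members. In control hypoxia the cell cycle inhibitor CDKN1A rose from 1.27 and 1.55 to 6.81 and 7.02 FPKM (1.72, SE 0.15, adjusted p = 0.00900), and SESN2, an mTORC1 inhibitor induced by ATF4, rose by 1.92 (adjusted p = 0.0101). MDM2, an E3 ubiquitin ligase, fell by 1.07 on the log2 scale (SE 0.26, adjusted p = 0.0491). GADD45A, a growth arrest gene, rose by 1.71, and AEN, an apoptosis-enhancing nuclease, fell by 1.34 on the log2 scale. In eKD2 against control hypoxia SESN2 was at 28.9 and 29.0 FPKM against 12.14 and 13.97 FPKM (1.09, SE 0.10, adjusted p = 0.0294) and AEN rose by 0.60, while SESN1 fell by 0.80 on the log2 scale. CDKN1A, at 4.88 and 3.61 FPKM, was below both control hypoxia libraries when PMAIP1 was above them, and was not called (-0.60, SE 0.17, adjusted p = 0.111). None of these genes was called in eKD1 against control hypoxia, where 0.0651% of all genes were. SESN2 was also called between the guides (2.22, SE 0.098, adjusted p = 0.0273), where 0.403% of all genes were.

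Other relatives of the family gave the largest rise of the apoptosis genes in hypoxia. Of 8 tested genes out of 13 listed, BNIP3 and BNIP3L, BH3-like mitophagy receptors and known HIF targets, rose (16.2% of all genes did). BNIP3 went from 10.8 and 11.2 to 214 and 208 FPKM (4.14, SE 0.065, adjusted p = 0.00140) and BNIP3L by 1.78. In eKD2 against control hypoxia 3 rose (5.80% of all genes did), BCL2L13 (1.26, SE 0.13, adjusted p = 0.0308), BNIP3 (0.37) and BNIP3L (0.36). In eKD1 none was called (0.0651% of all genes were), nor was any at an unadjusted p below 0.05 (21.7% of all genes). Between the guides 0 of 8 were called (0.403% of all genes were), with 4 at an unadjusted p below 0.05 (23.6% of all genes).

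Of 16 genes of the mitochondrial apoptosis machinery, 3 rose and 1 fell in control hypoxia (32.2% of all genes were called there, so this share is not above the background). The 3 were the voltage-dependent anion channels VDAC3 (0.48), VDAC1 (0.47) and VDAC2 (0.40). In eKD2 against control hypoxia the caspase-9 scaffold APAF1 rose from 6.29 and 5.59 to 16.2 and 17.7 FPKM (1.37, SE 0.12, adjusted p = 0.0284), and VDAC1 (-0.49) and VDAC3 (-0.34) fell. Of all genes, 5.80% rose and 3.81% fell in that comparison. In eKD1 APAF1 was at 13.4 and 19.8 FPKM, also above control hypoxia, and was not called (1.32, SE 0.23, adjusted p = 0.120). None of the 16 was called in eKD1 against control hypoxia or between the guides, with 5 at an unadjusted p below 0.05 in each. Of all genes, 0.0651% and 0.403% were called in these comparisons, and 21.7% and 23.6% had an unadjusted p below 0.05. With so few genes called, a count of 0 says little.

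The counts of the remaining lists in control hypoxia stand against 32.2% of all genes called. Against control hypoxia, 0.0651% of all genes were called in eKD1 and 9.61% in eKD2 (5.80% higher). At an unadjusted p below 0.05 the shares of all genes were 21.7% in eKD1 and 32.8% in eKD2. With so few genes called in eKD1, a count of 0 there says little. Of 12 tested death receptor genes, the decoy receptor TNFRSF10D rose in control hypoxia (2.25, SE 0.16, adjusted p = 0.00801) while RIPK1 (-0.91) and the adaptor FADD (-0.66) fell, and 0 were called in eKD1 or eKD2 against control hypoxia (2 at an unadjusted p below 0.05 in each). Of 5 tested inhibitor of apoptosis genes, BIRC6 fell in control hypoxia (-0.88, SE 0.15, adjusted p = 0.0238), and none was called in eKD1 or eKD2 against control hypoxia (0 and 1 at an unadjusted p below 0.05). Another list held ubiquitin ligases, ligase components and a deubiquitinase that act on MCL1 protein. Of its 6 tested genes, CDC20 (-1.25), BTRC (-0.75) and HUWE1 (-0.40) fell in control hypoxia together with MCL1 mRNA. CDC20 rose in eKD2 against control hypoxia (0.69, SE 0.053, adjusted p = 0.0273), where MCL1 did not pass the test, and none of the 6 was called in eKD1 against control hypoxia (3 at an unadjusted p below 0.05).

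Genes with the most similar profiles were found for the 3 members with the widest range of group means, by Pearson correlation of log2(FPKM + 1) over the 8 libraries among 10680 genes with a mean of at least 5 FPKM. The 8 points share 4 groups and cell pools, so the coefficients describe likeness only. For BBC3 they included PRKCI (r = 0.985) and KIAA1958 (0.984), and for PMAIP1 they were ADRA1A (0.992), CDKN1B (0.992) and CEBPG (0.990). For BCL2L11 they were KATNA1 (0.982), TSC22D1 (0.971) and MRPL17 (0.969). CEBPG ran from 19.8 FPKM in eKD1 to 54.8 FPKM in eKD2.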

How the data were processed

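Poly-A RNA of 8 SK-N-MC libraries was sequenced with single-end reads. The authors aligned these to GRCh37 by STAR and derived gene-level values through cufflinks and cuffnorm. FPKM is the unit of the deposited table, and how cuffnorm scaled the libraries is not given in the sources used here. Sample titles gave the groups and replicate numbers. Values were transformed to log2(FPKM + 1). Genes reaching 1 FPKM in 2 or more libraries were tested (15372 of 60332). For each comparison, only its 4 libraries were fitted in limma 3.58.1 under R 4.3.3 (lmFit, eBayes with a variance trend), two-sided, with Benjamini-Hochberg adjustment over all tested genes. The script was tested on simulated data. Read depth is unknown, so counting intervals and detection floors were not computed.

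The members and gene lists were chosen with earlier results of these data known. Named genes are the 10 members, fixed checks, and per list and comparison up to 3 called genes with the largest changes and at least 5 FPKM in the higher group. A few items covered by this rule, and 1 list, are not reported here. Positions came from GENCODE 44 on GRCh37 and promoter windows from RefSeq on GRCh38.p14, which were not converted. The alternatives changed the pseudocount to 0.1, dropped the filter or raised it to a mean of 5 FPKM, rescaled by median of ratios or to equal FPKM totals, fitted all 8 libraries together, added a replicate block, dropped the variance trend, or omitted each library in turn.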

Additional observations from a re-analysis of the deposited data

Results flagged for a closer look

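The guides gave effects that differed by a direct test for 5 of the named genes, each higher in eKD2 than in eKD1 in both libraries (limma, adjusted p from 0.0205 to 0.0461). Genes other than the members and fixed checks were named because they were called, in this comparison or another. The count of 5 is therefore a description, with no test of its own. Over all tested genes 0.403% were called between the guides. The log2 differences of these 5 genes were 3.001 for CHAC1, 2.22 for SESN2, 1.95 for TRIB3, 1.92 for DDIT3 and 1.30 for PMAIP1. PMAIP1 was the only BCL2 family member among them, and its call was lost with a replicate block and without a variance trend. Groups of 2 libraries were too small for a check of single outlying libraries.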

How the results depend on the processing

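Of the 9 member changes called in the 6 comparisons, each kept its direction under all of its alternatives, 106 in all, and 51 of these fell below the threshold. Omitting any 1 library left 0 genes called in the whole table in every comparison, so the number of members called was 0 to 0 in each, and the lone remaining library of a group was assumed to vary like the other group. The replicate numbers are not stated to pair the samples, and deviations of same-numbered libraries correlated at -0.057 to 0.13. With a replicate block, 1 member (BBC3) was called in control hypoxia against normoxia in place of 3, 0 in eKD2 against control hypoxia in place of 3, 0 between the guides in place of 1 and 0 in eKD2 against normoxia in place of 2. Without a variance trend, 0 were called in eKD2 against control hypoxia and 0 between the guides. The shared fit called 4 members in control hypoxia against normoxia (PMAIP1 besides the 3), 2 members between the guides (PMAIP1 and BBC3), 1 in eKD1 against normoxia (BBC3) and 5 in eKD2 against normoxia (BBC3, PMAIP1, BCL2L1, MCL1 and BCL2L11). A filter at a mean of 5 FPKM left 1 in eKD2 against normoxia because BBC3 was no longer tested. The cause of the other moves was not tested.

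Changes of sign occurred only among uncalled changes, in 18 of 608 alternatives. At equal FPKM totals, which moved the median of all genes to 0.14 in eKD2 against control hypoxia and to -0.13 in eKD1 against normoxia, BAD was at -0.060 in control hypoxia against normoxia, BAX at 0.025 in eKD2 against control hypoxia, BID at -0.089 and BAD at -0.14 in eKD1 against normoxia, and BAK1 at -0.031 in eKD2 against normoxia. With 1 library omitted, changes that crossed 0 ran from -0.028 to 0.0080 for BAK1 and -0.00075 to 0.36 for BAD (control hypoxia against normoxia), -0.36 to 0.17 for BCL2L11 (eKD1 against control hypoxia), -0.33 to 0.036 for MCL1, -0.25 to 0.0045 for BID and -0.022 to 0.52 for BCL2L11 (eKD2 against control hypoxia), -0.092 to 0.083 for BAX, -0.036 to 0.19 for BID and -0.15 to 0.21 for BAD (eKD1 against normoxia), and -0.18 to 0.030 for BCL2 (eKD2 against normoxia). The unknown depth limits the low genes most, BBC3 above all.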
